A study of Homo sapiens with 4 samples.

Results

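The RNA that came down with Flag-tagged AKT1 E17K in MDA-MB-231 cells was compared with the RNA of the same lysate. The comparison used all 4838 peaks that the authors listed for Flag-AKT1 E17K, out of 5646 peaks in the series. All listed peaks were kept, but the list itself depends on reads, since every listed peak has at least 11 immunoprecipitate reads. For each peak, the reads of the anti-Flag immunoprecipitate were set against those of the control column, read here as the input library after the sample labels, while the series description also speaks of control IgG. Both libraries carry the genotype label AKT E17K mutant and came from cells transfected with the Flag-tagged E17K plasmid. The other pair of libraries in the series came from cells with the Flag-AKT1 WT plasmid and has 808 peaks. MDA-MB-231 is a triple-negative, mesenchymal-like breast cancer line. No clone, transfection batch or dose is given, and RNA of the cells' own AKT1 gene and of the plasmid cannot be told apart. Each side had 1 library, so no difference has a replicate check, and every p-value compares these 2 libraries and covers counting error only.

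AKT1 is a serine/threonine kinase that is recruited to the plasma membrane by its pleckstrin homology domain when phosphoinositide 3-kinase is active. E17K is a cancer-associated exchange of glutamate for lysine in that domain, which favours binding to the membrane. RNA immunoprecipitation pulls a tagged protein out of a lysate together with the RNA bound to it. In the simplest case, an RNA held by the protein has more reads in the immunoprecipitate relative to the input than the bulk of RNAs. An RNA carried along without binding then keeps the ratio of the bulk. The main reference below is the median of the listed peaks rather than that bulk, so a gene near it is not shown to be unbound.

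The peaks of some protein-coding genes also covered microRNA hairpins, the folded precursors from which mature microRNAs are cut. 14 hairpins of the RefSeq annotation of GRCh38.p14 overlapped a peak, of which 10 lay wholly inside. The 3 of these with listed mature sequences and most immunoprecipitate reads in their peak are shown, because the strand label of a peak can be set against them. Each is given 5′ to 3′ on the plus strand of the build, with the mature microRNAs in capitals and the loop and flanks in lower case. MIR6807 lies at chr19:58550285-58550376 in the span of TRIM28, MIR7111 at chr6:35470508-35470579 in the span of RPL10A, and MIR6501 at chr21:33550662-33550728 in the span of SON.
MIR6807: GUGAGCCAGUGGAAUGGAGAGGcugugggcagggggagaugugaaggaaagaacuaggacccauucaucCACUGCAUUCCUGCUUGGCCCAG
MIR7111: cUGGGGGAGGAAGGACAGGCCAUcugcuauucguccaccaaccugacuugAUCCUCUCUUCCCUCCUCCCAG
MIR6501: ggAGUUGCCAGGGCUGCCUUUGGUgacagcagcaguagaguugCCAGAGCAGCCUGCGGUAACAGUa
All 14 hairpins lay on the strand opposite to the strand label of their peak. The same held for 3169 of the 3181 peaks (99.6%) whose gene has a strand in the RefSeq tables, compared to 49.0% after all peaks were moved by 1000000 bp. The label of a peak was therefore read as the strand opposite to the gene, and spans were counted on both strands. Peaks were far longer than these hairpins, so their reads cannot be assigned to the microRNA rather than its host transcript.

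The deposited reads lay in a small set of chromosome strands. The E17K list had peaks on 27 strands of 19 chromosomes, and a gene elsewhere has no measurement here. Of 10 genes that mark this line, 7 had peaks, among them VIM with 2032 immunoprecipitate and 1083 input reads, and CD44, CAV1, AXL, EGFR and FN1. Peaks were absent from all 7 genes that such cells express at low levels, of which 4 lie on strands that the list covers, namely ESR1, PGR, ERBB2 and GATA3. Of the markers without a peak, S100A4 also lies on a covered strand. A gene without a peak is not shown to be absent, and on the strand of ESR1 the smallest listed peak had 247 immunoprecipitate reads. The submitters' processing notes name Bowtie2 2.2.8 and the build hg18, whereas the coordinates matched GRCh38, with 98.9% of the peaks in a gene span compared to 61.7% after the move.

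The ratio of a typical peak was set first. Without the 5 AKT1 peaks, the list held 411089 immunoprecipitate and 199529 input reads. The median ratio of immunoprecipitate to input reads over these 4833 peaks was 2.18, with quartiles of 1.83 and 2.75 and an order-statistic interval of 2.16 to 2.2. This is called the typical ratio, and it corresponds to 68.6% of a peak's reads coming from the immunoprecipitate. The lists hold no library totals, so the value of 2.18 has no meaning of its own and only the position of a peak above or below it was read. Input counts under 3 were set to 3 in the ratio of a peak, which lowered the ratio of 168 peaks, and 141 more had exactly 3.

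Most of the spread around the typical ratio followed the number of reads. The peaks were split by reads into 10 groups of equal size. In the group with fewest reads, 11 to 19 in both libraries together, the median ratio was 3.67. In the group with most reads, 277 to 7775, it was 2.02. At least 1.5-fold above the typical ratio, that is at 3.27 or more, were 721 peaks, or 14.9% of the list. Of the peaks in the group with fewest reads 57.2% were that far above, and of those in the group with most reads 0%. At least 1.5-fold below, at 1.45 or less, were 326 peaks (6.74%). The listing fixes part of this: with at least 11 immunoprecipitate reads, a peak of 11 to 19 reads in all can hold few input reads, and 0 peaks of that group were 1.5-fold below. The lowest immunoprecipitate count also differed between chromosome strands, from 11 to 545, without chromosome 14. High ratios of small peaks, and genes in which every small peak lay above, are favoured by this and were read with it in view. Tested one by one by an exact binomial test (two-sided) of the immunoprecipitate share and Benjamini-Hochberg adjustment over the list, 1 peak lay above (0.0207%) and 30 lay below (0.62%), of which 5 were AKT1 peaks. The peak above was in SLK, a kinase of the STE20 family, with 29 immunoprecipitate reads and 1 input read and an adjusted p of 0.0400 in the exact test. At an unadjusted p of 0.05 or less were 407 peaks.

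**Figure D1:**
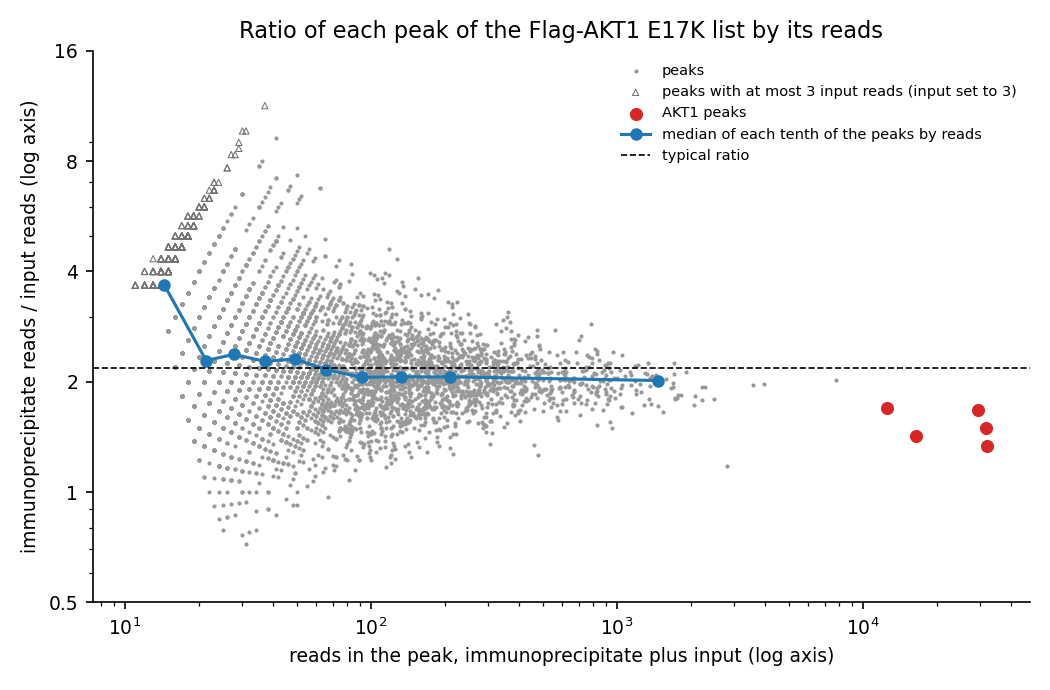
Ratio of immunoprecipitate to input reads of each peak of the Flag-AKT1 E17K list against its reads in both libraries, both on log axes, with AKT1 peaks in red, peaks with at most 3 input reads as triangles and the medians of 10 equal groups of peaks by reads in blue. The medians run from 3.67 in the group with fewest reads to 2.02 in the group with most, and the AKT1 peaks lie below the dashed typical ratio of 2.18.

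The AKT1 transcript itself had the most reads of all genes and lay below the typical ratio. Its 5 peaks, between chr14:104770201 and 104775200, held 73374 immunoprecipitate and 48883 input reads, a ratio of 1.5. All 5 were below the typical ratio, the lowest at 1.34 and the highest at 1.70. These peaks were left out of the typical ratio and of all medians.

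Peaks of the same gene had similar ratios. Around the ratio of their own gene, 3912 peaks of genes with several peaks varied 1.06 times as much as counting error alone gives. Around 1 common ratio, all 4833 peaks varied 1.36 times as much. These sets of peaks differ, so the values do not measure how much of the spread sharing a gene accounts for. Summed over their peaks, and thus on deeper counts, the 900 gene units with several peaks varied 2.35 times as much as counting error around 1 common ratio, and 2.03 times without PLEC. A gene unit is here the set of peaks that overlap the same gene spans, so that each read is counted once, and a unit written with a slash lies in overlapping spans. The list had 1767 gene units, 866 of them with 1 peak and 901 with several. The median gene unit had 169 reads, and the median ratio of gene units was 2.14.

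Summed over gene units, 13 units lay above the typical ratio in the exact binomial test (0.736% of all units) and 29 lay below (1.64%), AKT1 being 1 of the latter. At an unadjusted p of 0.05 or less were 256 units. The balance of the calls depended on the ratio taken as typical. Against the ratio of summed reads, 2.06, there were 24 units above and 11 below without AKT1. Against the median of peaks with similar numbers of reads, there were 10 above and 4 below. With the typical ratio of each chromosome strand, which ran from 1.91 to 2.34, there were 13 above and 36 below. 3 units above (SAMD9, RNA28SN3/RNA45SN3 and LOC110467529) and 4 units below (PLEC, TLN1, EEF1G/MIR6747 and PKM) were called in every one of these settings, in Fisher's exact test and when only peaks with at least 100 reads were kept. These 7 names were picked after their values were seen.

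SAMD9, which encodes a cytoplasmic protein with antiviral and growth-restricting activity, had 347 immunoprecipitate and 90 input reads in 6 peaks. Its ratio was 3.86 with an exact 95% interval of 3.05 to 4.92 and an adjusted p of 1.0e-04 in the exact binomial test. Of its 6 peaks, 5 had ratios between 3.28 and 4.91, and the last had 11 immunoprecipitate reads and 1 input read, so that all were above the typical ratio. The largest of them had 106 and 31 reads.

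The largest ratios among the called units were those of SMC3, RB1CC1 and PPP6R3. SMC3, a subunit of the cohesin ring that holds sister chromatids together, had 136 immunoprecipitate and 23 input reads, a ratio of 5.91. Its 4 peaks were at 2.50, 6.75, 7.20 and 7.75. RB1CC1, also called FIP200, which is part of the complex that starts autophagy, had 126 and 22 reads, a ratio of 5.73. Its larger peaks had 53 and 12 reads (4.42) and 37 and 6 reads (6.17), and the other two had 2 input reads each, against 17 and 19 immunoprecipitate reads. PPP6R3, a regulatory subunit of protein phosphatase 6, had 84 and 15 reads in 2 peaks, a ratio of 5.6. The adjusted exact p was 2.2e-04 for SMC3, 6.8e-04 for RB1CC1 and 0.0186 for PPP6R3. All peaks of these units had fewer than 100 reads, so the setting that kept only larger peaks does not test them.

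PCM1, the scaffold of the granules around the centrosome, had 190 immunoprecipitate and 41 input reads, a ratio of 4.63 with an interval of 3.29 to 6.66. Its 8 peaks were all above the typical ratio, 6 of them from 2.60 to 6.0, and the other two with 18 against 2 and 12 against 1 reads. LAMB1, a chain of the basement membrane protein laminin, had 146 and 34 reads, a ratio of 4.29, with 8 of 8 peaks above, each of 14 to 27 immunoprecipitate and 1 to 7 input reads and so in the range that the listing favours. RSF1, a subunit of a chromatin remodelling complex, had 114 and 25 reads, a ratio of 4.56, with 5 of 5 peaks above. Compared to peaks with similar numbers of reads, LAMB1 and RSF1 were not called, with adjusted exact p-values of 0.0813 and 0.202, and neither was PPP6R3, at 0.0588. Among the 10 units farthest above the typical ratio, 7 were called. The other three were CCNO-DT/DHX29 with 46 and 7 reads, FEZ2 with 54 and 8 reads and PAXIP1 with 39 and 5 reads, whose adjusted exact p-values were 0.0784, 0.0563 and 0.0784. DHX29 is a helicase of translation initiation and PAXIP1 a protein of the DNA damage response. All 43 peaks of the 10 units were above the typical ratio, which both their choice by the summed reads and the listing by immunoprecipitate reads favour.

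Another 4 units above had more reads and smaller ratios than the called units described so far. RNA28SN3/RNA45SN3 and LOC110467529, which were also called above, are described with the rRNA peaks below. PRKDC, the catalytic subunit of DNA-dependent protein kinase, had 1599 immunoprecipitate and 622 input reads in 52 peaks, the most peaks of any unit. Its ratio was 2.57, and 36 of the 52 peaks were above the typical ratio. CKAP5, which promotes growth of microtubules, had a ratio of 2.73 with 21 of 26 peaks above. TASOR2 had a ratio of 2.77 with 9 of 10 peaks above, and the cell cycle kinase CDK6 one of 2.83 with 8 of 9 above. Against the typical ratio of their own chromosome strand, these 4 gave adjusted exact p-values of 0.199 for PRKDC, 0.0293 for CKAP5, 0.0975 for TASOR2 and 0.0868 for CDK6. Against peaks with similar numbers of reads, the adjusted exact p-values were 0.190 for PRKDC, 0.0588 for CKAP5, 0.00198 for TASOR2 and 0.0178 for CDK6, so each of the 4 lost its call in at least 1 of these settings. All 13 units above had several peaks, and in 9 of them every peak was above.

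Genes below the typical ratio were led by PLEC, which encodes plectin, a large linker between intermediate filaments and other cytoskeletal fibres. PLEC had 2875 immunoprecipitate and 2244 input reads, a ratio of 1.28 with an exact interval of 1.21 to 1.35 and an adjusted p of 3.6e-74 in the exact binomial test. Its largest peak, at chr8:143915126-143923325, had 1507 and 1283 reads, a ratio of 1.17. The other 13 peaks ran from 1.0 to 2.2, and 1 of the 14 was above the typical ratio. The low ratio was thus found along the gene and not in the largest peak alone.

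TLN1, or talin 1, which couples integrins to actin, had 533 immunoprecipitate and 377 input reads, a ratio of 1.41. Its 10 peaks ran from 0.789 to 2.26, with 1 above the typical ratio, and the adjusted exact p was 9.9e-08. EEF1G, a subunit of the elongation factor that reloads the carrier of aminoacyl-tRNA, had a peak over the end of MIR6747 with 574 and 384 reads, a ratio of 1.49. The 5 other EEF1G peaks ran from 1.5 to 2.85, so the gene was not uniformly low. PKM, the pyruvate kinase of glycolysis, was low by a small margin on many reads, with 5011 and 2709 reads, a ratio of 1.85 and 3 of 3 peaks below.

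The 28 units below had a median of 1743.5 reads, compared to 273 reads for the 13 above. Of the 28, 18 had more than 1000 reads, as did 3 of the 13 and 129 of all units. Their highest ratio was 1.89, that of HSPA5, the chaperone of the endoplasmic reticulum. SRRT, which acts in RNA processing with the cap-binding complex, had 298 and 201 reads, a ratio of 1.48, with 3 of 3 peaks below. LOXL2, an enzyme that crosslinks collagen, had a ratio of 1.68, and ANXA2, a membrane-binding annexin, one of 1.78. VIM, the intermediate filament protein of mesenchymal cells, had 1813 and 969 reads in the peaks of its span alone, a ratio of 1.87. HSPA5, VIM and LOXL2 were not called against the ratio of summed reads, with adjusted exact p-values of 0.190, 0.242 and 0.144. SRRT and ANXA2 were not called against peaks with similar numbers of reads, with adjusted exact p-values of 0.0535 and 0.0796. The 14-3-3 protein YWHAZ, which binds phosphorylated targets of kinases such as AKT1, had 3991 and 2150 reads, a ratio of 1.86 and an adjusted exact p of 7.8e-07. Against peaks with similar numbers of reads its adjusted exact p was 0.0928.

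The 10 units farthest below included 5 that were called, namely PLEC, TLN1, SRRT, EEF1G/MIR6747 and a unit of nuclear copies of mitochondrial genes on chromosome 1. That unit, LOC102724250/MTND1P23/MTND2P28, had 183 and 126 reads, a ratio of 1.45. Its adjusted exact p was 0.0953 against the ratio of summed reads and 0.247 by chromosome strand. Against peaks with similar numbers of reads it was 0.190, so the call was lost in each of these settings. Reads of near-identical copies cannot be told apart, so its reads may be those of the mitochondrial genome. The 5 others had few reads, from 18 and 20 in RAPGEF1 to 80 and 62 in TTYH3, with UBAP2L at 24 and 26, PITRM1 at 34 and 33 and FEN1 at 66 and 53. Their adjusted exact p-values lay between 0.0698 for PITRM1 and 0.131 for RAPGEF1.

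The genes with most immunoprecipitate reads sat close to each other. After AKT1, the 10 highest were AHNAK, PKM, EIF4G2, YWHAZ, RPL4, PABPC1, HSPA8, PLEC, HSPA9 and HSPA5. AHNAK, a giant scaffold protein under the plasma membrane, had 5203 immunoprecipitate and 2572 input reads in 1 peak, a ratio of 2.02. EIF4G2, a scaffold of translation initiation, had 4493 and 2150 reads, a ratio of 2.09. Of the 10, 9 had ratios between 1.83 and 2.10, and PLEC stood apart at 1.28.

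By transcript class, peaks in ribosomal RNA (rRNA) spans lay above the typical ratio, and the other classes lay near it or below. The 14 rRNA peaks had a median ratio of 2.69, and 11 of them (78.6%) were above, compared to 49.7% of all peaks. Summed, rRNA had 1286 immunoprecipitate and 476 input reads, a ratio of 2.70 with an interval of 2.43 to 3.01 that covers counting error. The 4448 peaks in protein-coding spans only had a median of 2.19. The 39 peaks in lncRNA spans only had a median of 2.2, with 20 above, 19 not above, and 0 called either way. Summed reads gave ratios of 2.10 (interval 1.96 to 2.25) for lncRNA and 2.07 (interval 2.06 to 2.08) for protein-coding peaks, so a difference was not detectable at this depth.

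Within rRNA, the peaks in 28S and 18S differed. The 18S RNA belongs to the small ribosomal subunit and the 28S RNA to the large one, and both are cut from the 45S precursor. The 8 peaks in 28S spans had ratios from 2.61 to 4.62 and all lay above the typical ratio. The 4 peaks in 18S spans had ratios from 1.44 to 2.30, with 1 above. The ranges did not overlap. Summed, 28S had 886 immunoprecipitate and 283 input reads, a ratio of 3.13 (interval 2.74 to 3.59), and 18S had 235 and 141 reads, a ratio of 1.67 (interval 1.35 to 2.07). The pair of peaks in the precursor outside both had ratios of 2.71 and 3.71. The 28S peaks of RNA28SN3 were called as a unit, with 357 and 109 reads, a ratio of 3.28 and an adjusted exact p of 0.0102. RNA28SN2 and RNA28SN1 had ratios of 3.53 and 2.85 with adjusted exact p-values of 0.0698 and 0.147. LOC110467529, a pseudogene unit of chromosome 21, had 213 and 60 reads, a ratio of 3.55 and an adjusted exact p of 0.0301. These copies are near-identical, so that reads cannot be assigned to 1 of them and the peaks are not independent.

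In the WT list too, the median of the 28S peaks was above that of the 18S peaks. In that list, whose typical ratio was 0.976, the 9 peaks in 28S spans lay between 1.88 and 3.76 times that ratio. In the E17K list the 8 peaks in 28S spans lay between 1.20 and 2.12 times its typical ratio. The 4 peaks in 18S spans lay between 0.581 and 2.29 times the typical ratio in the WT list and between 0.660 and 1.05 times in the E17K list. The 18S and 28S peaks overlapped in the WT list and not in the E17K list. rRNA was depleted from all 4 libraries before sequencing, and the part of that depletion in these ratios was not tested.

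Peaks over small RNA genes, which are mostly small nucleolar RNA (snoRNA) and microRNA genes inside host genes, lay low. The 39 peaks had a median ratio of 1.94, with 13 (33.3%) above and 4 called below, compared to 0.62% of all peaks called below. These peaks had a median of 235 reads, compared to 56 over all peaks. Among peaks with at least 100 reads their median was 1.01 times the typical ratio, so the low position was not seen in that setting. The most immunoprecipitate reads were in RACK1/SNORD95/SNORD96A, with 1340 and 735 reads and a ratio of 1.82, in ATP5F1A/TRK-CTT6-1, with 1057 and 518 reads and a ratio of 2.04, and in MIR6807/TRIM28, with 714 and 435 reads. The last, which holds the MIR6807 hairpin shown above, had a ratio of 1.64 and an adjusted exact p of 5.8e-04. Against peaks with similar numbers of reads its adjusted exact p was 0.0612. The peak in the span of TRIM28 alone had 301 and 150 reads, a ratio of 2.01 and an adjusted exact p of 0.835, so the gene was not uniformly low. TRIM28 is a corepressor that works with zinc finger proteins. The peaks over MIR7111 and MIR6501 had ratios of 2.13 and 2.14. Over the 14 microRNA hairpins the ratios ran from 1.49 to 2.50 with a median of 2.02.

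Peaks in both protein-coding and lncRNA spans numbered 218, with a median ratio of 2.07. In 75 of them the strand opposite to the label, on which genes lie, held the protein-coding gene alone. In 42 it held both, and in 1 the lncRNA alone, and for the rest a strand was missing or mixed. Without genes on the labelled strand, the class shrank to 127 peaks with a median of 2.17. Among the members with most immunoprecipitate reads were C10orf55/PLAU and HNRNPH1/LOC128966623, with ratios of 1.98 and 2.04. Among lncRNAs without a coding gene, SNHG15 had 500 and 222 reads, a ratio of 2.25, NORAD had 444 and 213 reads, a ratio of 2.08, and SNHG32 had 326 and 172 reads, a ratio of 1.90. NORAD binds Pumilio proteins and is abundant in the cytoplasm. None of these 3 was called.

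SVIL-AS1, a lncRNA antisense to the supervillin gene, had 2 peaks of its own and 1 shared with the pseudogene PTCHD3P1. The former had 77 immunoprecipitate and 39 input reads, a ratio of 1.97 with an interval of 1.33 to 2.98. The latter had 60 and 20 reads, a ratio of 3.00 with an interval of 1.78 to 5.25. Both intervals include the typical ratio, and the adjusted exact p-values were 0.921 and 0.676.

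The remaining classes had medians below the typical ratio. Peaks in no gene span numbered 55, with a median ratio of 2.02. The 18 peaks in pseudogene spans only had a median of 2.03, with 7 above the typical ratio. Their summed ratio was 2.04, with an interval of 1.84 to 2.28 that includes the typical ratio. LOC110467529 of this class, described above, was at 3.55. PPIAP22 and RPL13AP5, copies of the genes for cyclophilin A and a ribosomal protein, were at 1.70 and 1.65. Reads of such copies may belong to the parent genes. The mitochondrial genome had 2 peaks, COX1 with 238 and 147 reads (ratio 1.62) and ND5 with 239 and 127 reads (ratio 1.88), both subunits of respiratory complexes. Neither was called.

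Gene lists were compared by the median ratio of their units, beside 2.14 for all gene units, of which 46.0% lay above the typical ratio. Each median was also taken relative to the typical ratio under 7 settings in all, and 11 of the 21 lists stayed on the same side in each. Above in every setting were zinc finger ZNF genes, RNA helicases, chromatin regulators and the AKT pathway. In their lowest setting, chromatin regulators were at 1.005 times the reference, the AKT pathway at 1.006 and RNA helicases at 1.014, so the excess was small. Below in every setting were cytosolic ribosomal proteins, translation factors, glycolysis, heat shock proteins and chaperones, extracellular matrix and adhesion, actin and tubulin cytoskeleton and snoRNA host genes. All gene units together had a median of 0.982 times the typical ratio, so a place just below 1 was common. Heat shock proteins and chaperones came as near to 1 as 0.9999, and snoRNA host genes as near as 0.990. Of the units in these lists 42.9% and 41.7% were above, close to the share of all units. The members of a list are not replicates, and these are counts without a test.

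Zinc finger genes, most of which encode DNA-binding repressors, were the highest list. Of 27 units 20 (74.1%) were above the typical ratio, the median was 2.45, and no unit was called. The median lay between 1.09 and 1.13 times the typical ratio over the 7 settings. The units were small, with a median of 116 reads. The largest by immunoprecipitate reads, ZNF207 with 277 and 119 reads and ZNF217 with 236 and 102 reads, had ratios of 2.33 and 2.31. ZKSCAN1 had 219 and 79 reads, a ratio of 2.77, and ZNF37A 47 and 11 reads, a ratio of 4.27. Below the typical ratio were, among others, ZNF706 at 1.95 and ZNF485 at 1.75.

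RNA helicases, which unwind RNA in its processing and translation, had 8 of 12 units above, a median of 2.30 and no call. DDX21, which acts in rRNA processing, had 2028 and 927 reads, a ratio of 2.19, and DDX6, a helicase of mRNA storage granules, had 893 and 380 reads, a ratio of 2.35. Chromatin regulators had 12 of 21 units above with a median of 2.25, and TASOR2 was the 1 unit called. BAZ1B, a remodelling subunit, had a ratio of 2.50. Cell cycle genes had 14 of 28 units above and 2 called, SMC3 and CDK6. RAD21, the cohesin subunit that joins the ring with SMC3, had peaks in 2 units. In its span alone it had 569 and 233 reads, a ratio of 2.44 and an adjusted exact p of 0.558. The unit LOC112268030/RAD21 had 292 and 99 reads, a ratio of 2.95 and an adjusted exact p of 0.140. MCM7, a subunit of the replicative helicase, was at 2.08, and PCNA, the sliding clamp of replication, had 123 and 88 reads, a ratio of 1.4 and an adjusted exact p of 0.0628.

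Genes of the AKT pathway had 9 of 15 units above, a median of 2.25 and no unit called in either direction. The phosphatase PP2A, which removes phosphates from AKT, had PPP2CA at 2.24 (993 and 443 reads), PPP2CB at 2.25, PPP2R2A at 2.66 (343 and 129 reads), PPP2R1B at 2.45 and PPP2R1A at 1.98. Among upstream regulators, the lipid phosphatase INPPL1 had a ratio of 1.23 on 32 immunoprecipitate reads. RICTOR and MAPKAP1, subunits of the mTORC2 kinase that phosphorylates AKT, had ratios of 2.05 and 1.44. Among targets and effectors, BAD, a promoter of cell death that AKT inhibits, was at 2.53, EIF4EBP1, a repressor of translation downstream of mTORC1, at 2.36, and RHEB, the GTPase that activates mTORC1, at 1.88. The lowest adjusted exact p among the 15 units was 0.272, that of INPPL1, so none could be told from the typical ratio at this depth.

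Cytosolic ribosomal proteins were the list with most calls. Of 40 units 9 (22.5%) were above the typical ratio, 6 were called below (1.64% of all units were) and 0 above (0.736%), and the median was 2.0. RPL4 had 3287 immunoprecipitate and 1796 input reads, a ratio of 1.83, with 3 of 3 peaks below. RPS14 was at 1.77, RPL30 at 1.74 and RPL11 at 1.62. RACK1, a signalling scaffold on the small subunit, was called in the peak over its snoRNAs and had a ratio of 1.99 in its own peaks. The list had a median of 572.5 reads, and against peaks with similar numbers of reads its median was 0.990 times the reference, compared to 0.915 times in the main setting. Against that reference no ribosomal protein unit was called.

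The other low lists had fewer calls, to be read beside 1.64% of all units called below and 0.736% called above. Translation factors had 7 of 27 units above with a median of 2.0 and 2 called below. PABPC1, the cytoplasmic poly(A)-binding protein, had 3205 and 1608 reads, a ratio of 1.99. Glycolysis had 2 of 7 units above, with PKM called and PGAM1 at 1.93. Heat shock proteins and chaperones had 9 of 21 above, with HSPA8 at 2.0 and the mitochondrial chaperone HSPA9 at 2.10. Actin and tubulin cytoskeleton genes had 3 of 20 units (15%) above and a median of 1.98. Called below were 3 of them, PLEC, TLN1 and the tubulin gene TUBB at 1.88. TUBB was not called against the ratio of summed reads or peaks with similar numbers of reads, with adjusted exact p-values of 0.330 and 0.583. VCL, or vinculin, a partner of talin at the same adhesions, had 581 and 261 reads in 15 peaks, a ratio of 2.23, and so lay apart from TLN1. Extracellular matrix and adhesion genes had 7 of 29 units above with a median of 1.96, with LAMB1 called above and LOXL2 and VIM called below. The snoRNA host genes had 5 of 12 units above and 1 called, SNHG1/SNORD22 at 1.62. That unit was not called against the ratio of summed reads or peaks with similar numbers of reads, with adjusted exact p-values of 0.0740 and 0.190. With at least 100 reads per peak the adjusted exact p was 0.0947.

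The other 10 lists crossed the typical ratio between settings. Beside the cell cycle genes, calls among them were limited to 1 unit below in each of proteasome and ubiquitin genes, splicing factors and hnRNPs, and nuclear pore and transport genes. Histones, whose mRNAs end in a stem-loop in place of a poly(A) tail, had a median of 2.12 over 22 units, with H3C2 at 2.11 and H2BC4 at 2.21. Genes of the respiratory chain and mitochondrial ribosome had a median of 2.13 over 55 units, led by ATP5F1A/TRK-CTT6-1 and by ATP5PB at 2.13. Proteasome and ubiquitin genes had a median of 2.14 over 53 units, with VCP at 1.88. Splicing factors and hnRNPs had a median of 2.13 over 47 units, with CELF1 at 2.14. Small GTPases had a median of 2.12 over 27 units, with ARF1 at 1.96 and CDC42 at 2.35. Integrins and receptors had a median of 2.07 over 20 units, with CD59 at 2.06 and RHOBTB2/TNFRSF10B at 2.04. Solute carriers had a median of 2.23, with SLC39A14 at 2.02 and SLC35F2 at 2.23, nuclear pore and transport genes one of 2.16, with NUP155 at 2.25 and NUP98 at 2.06, and motor proteins one of 2.17, with DCTN4 at 2.17 and DCTN1 at 1.87.

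Longer genes had higher ratios and fewer reads. The 1391 units in 1 protein-coding span were split into 4 groups by span. The group with the shortest spans, 388 to 11974 bp, had a median ratio of 2.07 and a median of 205 reads, and the group with the longest, 67050 to 1553091 bp, had 2.29 and 139 reads. The former held 0 units called above and 11 called below, and the latter 9 above and 2 below, of 348 units each. Over all gene units, 0.736% were called above and 1.64% below. Units called below had a median of 1743.5 reads, and calls by span were not counted against peaks with similar numbers of reads. Spearman's rho across the 1391 units, which share both libraries, was 0.18 between span and ratio and -0.27 between reads and ratio. Relative to peaks with similar numbers of reads, rho between span and ratio was 0.05. Among units with at least 200 reads the medians were 2.01, 2.05, 2.06 and 2.19 from the shortest to the longest group, and 0.986, 0.994, 0.989 and 1.03 relative to peaks with similar numbers of reads.

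Ratios were close to each other along the gene. Peaks inside 1 protein-coding span with a known strand numbered 2987, and 59.6% of them lay in the last of 3 equal parts of the span, at the 3′ end. The median ratios were 2.2 in the 5′ part, 2.17 in the middle and 2.17 in the 3′ part. With at least 100 reads they were 2.09, 2.03 and 2.04.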

How the data were processed

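RIP-seq libraries of MDA-MB-231 cells were prepared by the authors after rRNA depletion, with 5% of the lysate volume kept as input. The authors deposited 1 peak list per plasmid, whose columns are whole-number read counts without normalization. The lists also hold the authors' log odds score, reads per kilobase, p-value, adjusted p-value and empirical false discovery rate of each peak. Of these deposited columns, the adjusted p-value served in 1 alternative setting and the others were not used. The peak caller is not given in the sources used here. Depth is known only within peaks. Peaks were joined to RefSeq GRCh38.p14 gene spans by an overlap of at least 1 bp, and strands were taken from the RefSeq promoter and microRNA tables where listed. Ratios and two-sided exact binomial tests with Benjamini-Hochberg adjustment at 0.05 were computed with Python 3.11.15, numpy 2.4.6, pandas 2.3.3 and scipy 1.17.1, tested on simulated data, and plotted with matplotlib 3.10.9. Intervals are exact Clopper-Pearson intervals of 95%, and reads may hold PCR copies. Named units were AKT1, SVIL-AS1, the 10 units farthest on each side by interval bound, the 10 with most immunoprecipitate reads, and the top units of each class and list. Other units are named because they were called, or to show the range of a list. Members, lists and tests were chosen with earlier results of these data known. The alternatives with similar numbers of reads and without genes on the labelled strand were chosen after seeing the data. Some units named by these rules are not reported here.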

Additional observations from a re-analysis of the deposited data

How the results depend on the processing

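No paired analysis was possible because each side had 1 library. No call reversed. Of the values and counts of the main comparisons under the alternatives, 61 stayed within counting error or within 1.5 times and 36 did not, and these are given here. The typical ratio was 2.06 from summed reads, 2.04 with at least 100 reads and 2.15 with 0.5 added to both counts. Peaks above numbered 2 in Fisher's exact test, 2 against summed reads, 0 by chromosome strand and 4 with at least 100 reads. Peaks below numbered 13, 13 and 15 in Fisher's exact test, against summed reads and with at least 100 reads, and 11 against peaks with similar reads. Gene units above numbered 24 in Fisher's exact test and against summed reads. Gene units below, AKT1 included, numbered 12 in both of these, 13 with at least 100 reads and 5 against peaks with similar reads. Peaks far above numbered 243 at a fold of 2, 43 with at least 100 reads and 408 against peaks with similar reads, and far below 48 at a fold of 2 and 26 with at least 100 reads.

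Relative to the typical ratio, rRNA was at 1.46 in peaks of exactly 1 span. Small RNA was at 0.712 in 1 such peak, 1.01 with at least 100 reads (the other side of the typical ratio), 0.935 by chromosome strand and 0.960 against similar reads. Coding and lncRNA peaks were at 0.961 by chromosome strand and against similar reads and at 0.996 without genes on the labelled strand. Pseudogenes were at 0.832 with at least 100 reads and 0.825 against similar reads, and peaks in no span at 0.943 by chromosome strand. Lists above numbered 10 in place of 6 with at least 100 reads, by chromosome strand and against similar reads. The causes were not tested. Depth limits single peaks and small units most, and the minimum of 100 reads per peak left 987 of 1767 units.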
